A study of Homo sapiens with 6 samples.

Results

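The genes described here are 5 genes of the plasminogen activator system, PLAU, PLAT, PLAUR, SERPINE2 and SERPINB2, in a breast cancer cell line given PCI-24781. They were chosen by name, as the rows whose NCBI Gene ID maps to these symbols, and all 5 were found among the 16623 genes of the files. MDA-MB-231 is an established human line of triple-negative breast cancer. The compound PCI-24781 inhibits histone deacetylases, and DMSO served as the solvent control. Cells of this 1 line grew as adherent cultures in the same serum-containing medium and received either DMSO alone or the inhibitor at 100 nM or 200 nM, for a duration of 24 h or of 48 h. RNA sequencing gave 6 libraries, namely DMSO 24 h, 100 nM 24 h, 200 nM 24 h, DMSO 48 h, 100 nM 48 h and 200 nM 48 h. The study used this experiment to ask which genes respond to PCI-24781, and the comparisons below ask how genes of this proteolytic system differed between dose, time and control. With 1 library per condition, no difference has a replicate check, and no error or p-value can be given.

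Plasminogen is an inactive zymogen from plasma that is cut to plasmin, a broad protease of fibrin and of the extracellular matrix. The cut is made by urokinase (PLAU) or by tissue-type plasminogen activator (PLAT). Urokinase is held at the cell surface by its receptor (PLAUR), and serpins such as SERPINE2 and SERPINB2 block the activators by a covalent trap. The urokinase arm is known for its part in the invasion of breast cancer cells, and MDA-MB-231 is a common model for it.

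Expression was given by the authors as FPKM, a fragment number corrected for transcript length and for library size, so levels can be set beside each other between genes. A change is the difference in log2(FPKM + 1) between the libraries compared, and this scale understates the change of low genes. A gene was tested for size when its FPKM was at least 1 in either library, and it was called higher or lower when the change reached 2-fold. The files give no depth, and the step size among low FPKM values put it at about 16100000 to 18800000 fragments per library. Genes listed as markers of the line were present, with VIM, CD44, AXL and MSN at a summed FPKM of 2613 to 3079, which does not by itself identify the line. The estrogen receptor gene ESR1 did not exceed 0.04, the progesterone receptor gene PGR did not exceed 0.03, and ERBB2 was between 13.2 and 21.4.

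PLAU and PLAUR were the highest of the 5 genes in every library, at FPKM of 50.2 or more and of 31.7 or more. PLAT and SERPINE2 were lower, between 8.16 and 30.1, and SERPINB2 was at 2.01 or less. Against DMSO of the same time, PLAT and SERPINE2 were called higher at 200 nM 24 h, SERPINB2 was called higher at 200 nM 48 h, and no member was called lower. Between the DMSO libraries, with no PCI-24781 in either, PLAT was also called, higher at 48 h. FPKM is an average over each culture, so more cells with a transcript and more transcript per cell cannot be told apart.

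**Figure D1:**
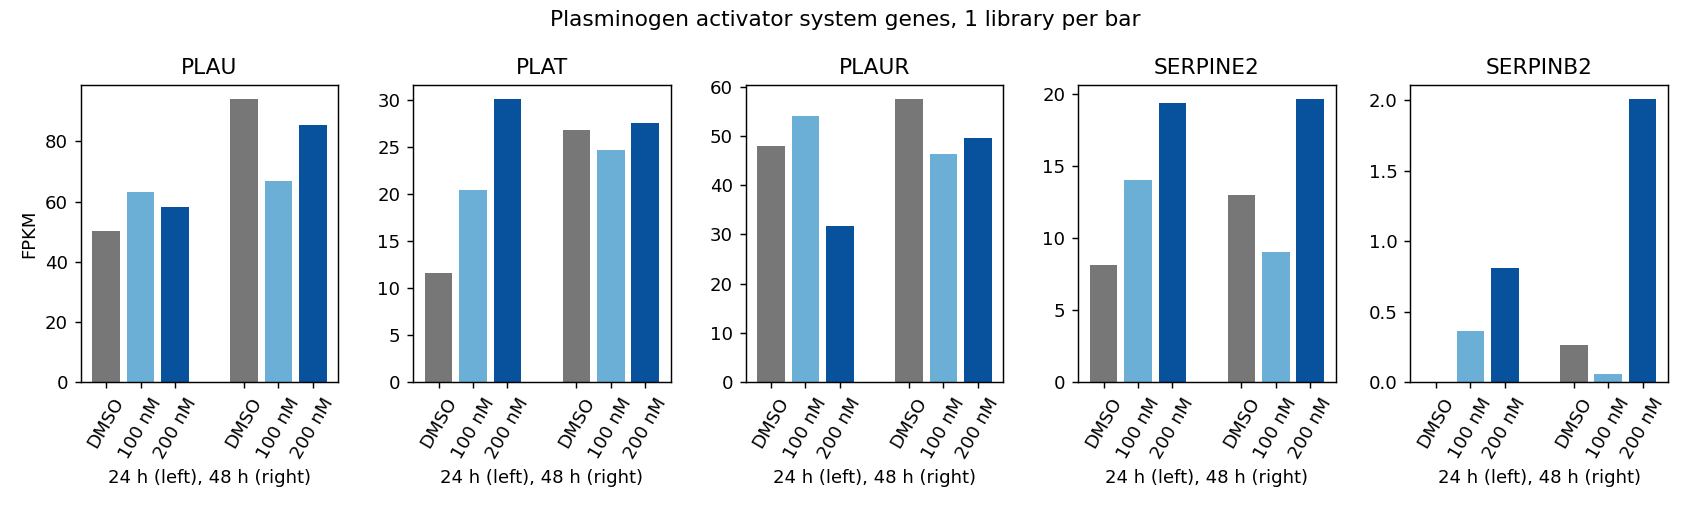
FPKM (y axis, from 0) of PLAU, PLAT, PLAUR, SERPINE2 and SERPINB2 in each of the 6 libraries, with 24 h in the left bars and 48 h in the right bars of each panel, 1 library per bar and no error bars. The tallest bar is DMSO 48 h for PLAU (94.0) and PLAUR (57.5), 200 nM 24 h for PLAT (30.1), and 200 nM 48 h for SERPINE2 (19.7) and SERPINB2 (2.01).

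PLAU (Gene ID 5328) encodes urokinase and lies on the plus strand of chromosome 10, from 75670859 to 75677259 in hg19. Its FPKM was 50.2 in DMSO 24 h, 63.3 in 100 nM 24 h and 58.1 in 200 nM 24 h. The 48 h values were 94.0 in DMSO, 66.7 in 100 nM and 85.4 in 200 nM. DMSO 24 h was the lowest library and DMSO 48 h the highest, so the 4 PCI-24781 libraries lay between the DMSO libraries. The change was 0.33 at 100 nM and 0.21 at 200 nM at 24 h, and -0.49 and -0.14 at 48 h, none of which reached 2-fold. Between the DMSO libraries the difference was larger than any of these, 0.89 higher at 48 h. Against the mean of both DMSO libraries the 24 h values turned to -0.12 and -0.24. C10orf55 overlaps PLAU on the opposite strand, and whether the counting used strand is not given in the sources used here, so reads of both genes cannot be told apart. C10orf55 was listed at 0.30 to 0.80.

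PLAT (Gene ID 5327), the tissue-type activator and best known for dissolving clots, lies on the minus strand of chromosome 8, from 42032236 to 42065242 in hg19. Its FPKM was 11.6 in DMSO 24 h, 20.4 in 100 nM 24 h and 30.1 in 200 nM 24 h. By 48 h the values were 26.8 in DMSO, 24.7 in 100 nM and 27.6 in 200 nM. The 24 h libraries were ordered by dose, whereas the 48 h libraries showed no order by dose. The change at 24 h was 0.76 at 100 nM and 1.30 at 200 nM, and the last of these was called, at 2.59 times the FPKM of DMSO 24 h. At 48 h the changes were -0.12 and 0.04. The DMSO 24 h library stood apart, since DMSO 48 h had 2.30 times its PLAT FPKM, a called change of 1.14. At 200 nM 24 h the change was 0.73 against the mean of both DMSO libraries and 0.16 against DMSO 48 h, so the call rests on the DMSO 24 h library.

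PLAUR (Gene ID 5329), the urokinase receptor, lies on the minus strand of chromosome 19, from 44150247 to 44174498 in hg19. Its start region is shown because this was the member with the lowest value at 200 nM 24 h relative to both DMSO libraries.

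The sequences printed here are the 250 bases before a gene's annotated start, 5′ to 3′ on the gene's strand, from the RefSeq table of GRCh38.p14, which held windows for 4 of the 5 genes. That build differs from hg19 of the files. Capitals mark matches, on either strand, to the TATA box letters TATAAA, the CCAAT box, the GC box letters GGGCGG, or the AP-1 motif, spelled TGAGTCA or, as its reverse complement, TGACTCA. The search covered 250 bases before to 50 after each start, and none of the matches overlapped another. Over 35116 windows of this length, 11.5% held the TATA box letters, 34.6% the CCAAT box, 45% the GC box letters and 4.95% the AP-1 motif. The PLAUR window (chr19:43670170-43670419, minus strand) held 1 match, the AP-1 letters starting at position -186 from the start.
PLAUR: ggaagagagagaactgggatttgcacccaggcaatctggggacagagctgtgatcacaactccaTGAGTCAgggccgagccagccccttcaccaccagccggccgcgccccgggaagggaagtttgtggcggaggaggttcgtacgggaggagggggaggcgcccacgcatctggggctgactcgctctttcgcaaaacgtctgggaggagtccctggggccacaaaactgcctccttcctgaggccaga

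A match gives only that these letters are present and not that a factor binds there. PLAUR had an FPKM of 48.0 in DMSO 24 h, 53.9 in 100 nM 24 h and 31.7 in 200 nM 24 h. The 48 h libraries held 57.4 in DMSO, 46.4 in 100 nM and 49.5 in 200 nM. The 200 nM 24 h library was the lowest and the other libraries lay between 46.4 and 57.5. At 24 h the changes were 0.16 with 100 nM and -0.58 with 200 nM. The 48 h changes were -0.30 and -0.21, and none of the 4 was called. The step from 100 nM to 200 nM at 24 h was -0.75, a value at or below which 0.815% of the tested genes lay. That share was 7.64% for the change at 200 nM 24 h against DMSO 24 h. For the same dose step at 48 h, a change of 0.09, it was 62.1%. At 200 nM 24 h PLAUR stayed lower with other references, at -0.71 against the mean of both DMSO libraries and -0.84 against DMSO 48 h. The ratio of PLAU to PLAUR FPKM was 1.05 in DMSO 24 h, 1.17 in 100 nM 24 h and 1.83 in 200 nM 24 h, and it was 1.64, 1.44 and 1.73 in DMSO, 100 nM and 200 nM at 48 h.

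SERPINE2 (Gene ID 5270), also called protease nexin 1, inhibits thrombin, urokinase and tissue-type activator. It lies on the minus strand of chromosome 2, from 224839765 to 224904036 in hg19. Its start regions are shown with that of SERPINB2 because these inhibitors were highest in the same library, 200 nM 48 h. The table held 2 windows for SERPINE2. The first (chr2:224031479-224031728, minus strand) held the CCAAT box at 7 places, -250, -215, -181, -138, -104, -61 and -27, some as the reverse complement ATTGG, besides the GC box letters at -50. The second (chr2:224038641-224038890, minus strand) held the GC box letters at 2 places, -230 and -183, both as the reverse complement CCGCCC. The SERPINB2 window (chr18:63887455-63887704, plus strand) held the TATA box letters at -30 and none of the other motifs.
SERPINE2 window 1: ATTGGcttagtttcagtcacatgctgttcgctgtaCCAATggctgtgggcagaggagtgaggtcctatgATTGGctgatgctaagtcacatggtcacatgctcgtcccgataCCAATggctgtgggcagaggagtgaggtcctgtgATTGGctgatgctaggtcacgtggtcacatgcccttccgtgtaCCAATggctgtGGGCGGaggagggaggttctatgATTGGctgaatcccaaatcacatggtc
SERPINE2 window 2: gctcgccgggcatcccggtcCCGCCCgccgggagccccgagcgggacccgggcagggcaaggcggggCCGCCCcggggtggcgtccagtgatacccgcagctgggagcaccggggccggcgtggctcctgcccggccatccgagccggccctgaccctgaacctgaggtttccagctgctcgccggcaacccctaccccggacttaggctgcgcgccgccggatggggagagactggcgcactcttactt
SERPINB2: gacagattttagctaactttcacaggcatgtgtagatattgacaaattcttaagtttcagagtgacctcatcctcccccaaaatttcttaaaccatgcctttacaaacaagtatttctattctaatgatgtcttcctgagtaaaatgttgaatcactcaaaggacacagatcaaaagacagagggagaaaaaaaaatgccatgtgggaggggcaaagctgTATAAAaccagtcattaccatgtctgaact

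In window 1 of SERPINE2 the CCAAT box matches alternated between the strands, and neither SERPINE2 window held the TATA box letters. The SERPINE2 and SERPINB2 windows shared none of the 4 motifs. The table also held 2 windows for PLAU, 1 with the CCAAT box at -182 and the other with the GC box letters at 3 places.

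SERPINE2 had an FPKM of 8.16 in DMSO 24 h, 14.01 in 100 nM 24 h and 19.4 in 200 nM 24 h. After 48 h it was 13.01 in DMSO, 9.06 in 100 nM and 19.7 in 200 nM. Both 200 nM libraries lay above the other 4, while 100 nM lay above DMSO at 24 h and below it at 48 h. Listed genes that are not inhibitors, ITGB1, ITGAV, IGF2R and COL1A1, also had both 200 nM libraries above the other 4. The share of all genes with this order was not counted. The 24 h changes of SERPINE2 were 0.71 with 100 nM and 1.16 with 200 nM, and the last of these was called, at 2.38 times the FPKM of DMSO 24 h. At 48 h the changes were -0.48 and 0.56. The call at 200 nM 24 h rests on the DMSO 24 h library, since the change was 0.85 against the mean of both DMSO libraries and 0.54 against DMSO 48 h, higher in each case. Between the doses at 48 h, SERPINE2 was called higher at 200 nM, with a change of 1.04 and 2.17 times the FPKM.

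SERPINB2 (Gene ID 5055), plasminogen activator inhibitor 2, is known as a mostly intracellular serpin that is induced by inflammatory signals. It lies on the plus strand of chromosome 18, from 61554939 to 61571124 in hg19. It was listed at 0 in DMSO 24 h, 0.36 in 100 nM 24 h and 0.81 in 200 nM 24 h. Its 48 h values were 0.26 in DMSO, 0.06 in 100 nM and 2.01 in 200 nM. At the inferred depths these values stand for about 0, 14, 32, 10, 2 and 70 fragments in the same order, and 3 fragments correspond to an FPKM of 0.074 to 0.0865. The 200 nM library was the highest at each time. It reached an FPKM of 1 only in 200 nM 48 h, where the change was 1.26 and was called, at 7.73 times the FPKM of DMSO 48 h. With a pseudocount of 0.01 in place of 1 the change was 2.90. It was 1.42 against the mean of both DMSO libraries and 1.59 against DMSO 24 h. In the other comparisons with DMSO of the same time SERPINB2 was too low to be tested, with differences of 0.44 and 0.86 for the doses at 24 h and of -0.25 for 100 nM 48 h.

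Set beside all genes, the members' counts were small numbers out of 4 or 5. At 100 nM 24 h, 0 of 4 tested members were called, where 1.48% of 11475 tested genes were called. The median change of the members was 0.52 and that of all tested genes 0.01. At 200 nM 24 h, 2 of 4 members were called, PLAT and SERPINE2, against 5.94% of 11660 genes, and the medians were 0.68 and 0.01. At this dose and time the central 95% of all genes spanned -0.85 to 1.22, so SERPINE2 lay inside and PLAT outside that range.

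At 48 h the values were smaller for most members. At 100 nM 48 h, 0 of 4 members were called against 0.469% of 11514 genes. All 4 lay below 0, with a median of -0.39 against -0.01 for all genes, and PLAU and SERPINE2 were close to the lower edge of the central 95%, -0.51. Of all tested genes, 5435 lay above 0 and 6028 below, and 47 of the 54 called genes were lower. At 200 nM 48 h, 1 of 5 members was called, SERPINB2, where 0.266% of 11665 genes were called, and the medians were 0.04 and 0.01. SERPINB2 entered this count through the 200 nM library alone, where it is high, so the count is no support for a difference, and 0 members were called when an FPKM of 1 was required in both libraries. SERPINE2, which was not called, lay above the central 95%, which ended at 0.49. The 4 comparisons share the DMSO library of each time.

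**Figure D2:**
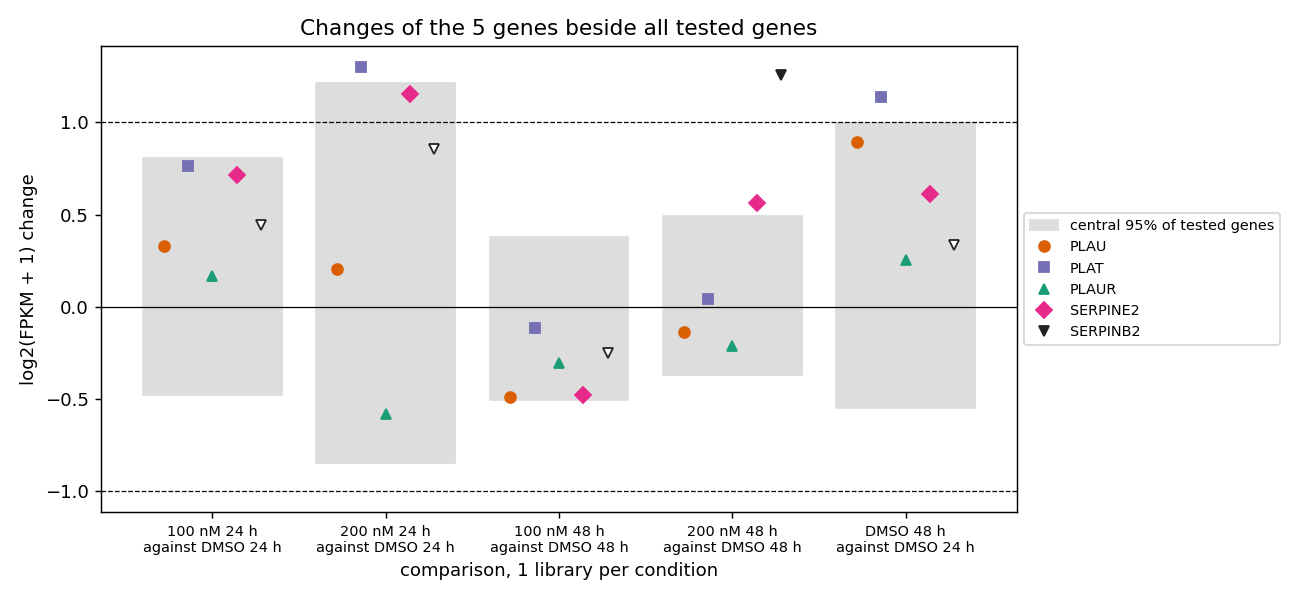
Change in log2(FPKM + 1) (y axis) of each of the 5 genes in the 4 comparisons with DMSO of the same time and between the DMSO libraries (x axis), beside the central 95% of all tested genes (grey) and the 2-fold lines (dashed). Open symbols are SERPINB2 where its FPKM was below 1 in both libraries, and above the grey area lie PLAT at 200 nM 24 h (1.30) and between the DMSO libraries (1.14), and SERPINB2 (1.26) and SERPINE2 (0.56) at 200 nM 48 h.

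The size of these changes can be read against time in DMSO and against the dose step. In DMSO 48 h against DMSO 24 h, 1 of 4 tested members was called, PLAT, where 2.62% of 11490 genes were. All 4 were higher at 48 h, with a median of 0.75 against -0.00 for all genes. From 100 nM to 200 nM, 0 of 4 members were called at 24 h, against 0.524% of 11651 genes. At 48 h, 2 of 5 were called, SERPINE2 at 1.04 and SERPINB2 at 1.51, against 2% of 11694 genes, and the 100 nM 48 h value of SERPINB2 rests on about 2 fragments. SERPINB2 again entered only through the 200 nM library, so its call adds no support to that count. That comparison uses no DMSO library, and all 5 members were higher at 200 nM there, with PLAU at 0.35, PLAT at 0.16 and PLAUR at 0.09. In it 6080 of all tested genes lay above 0 and 5594 below, with 200 called higher and 34 lower.

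The relative amounts of the activators differed by dose mainly at 24 h. The summed FPKM of PLAU and PLAT was 61.8, 83.7 and 88.2 in DMSO, 100 nM and 200 nM at 24 h, and 120.8, 91.3 and 113.1 in the 48 h libraries in the same order. The part of PLAT in this sum was 18.8%, 24.4% and 34.2% for the 24 h libraries, and 22.2%, 27.0% and 24.4% for the 48 h libraries. PLAT thus made up the largest part in 200 nM 24 h. The ratio of PLAT to SERPINE2 FPKM, an activator over 1 of its inhibitors, was 1.43, 1.46 and 1.55 in DMSO, 100 nM and 200 nM at 24 h, and 2.06, 2.72 and 1.40 at 48 h. It varied little among the 24 h libraries, and its lowest value, in 200 nM 48 h, was close to that of DMSO 24 h. DMSO 48 h and 100 nM 48 h stood above the other libraries. These are ratios of RNA levels and not of protein or activity.

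The other genes of the system were read from a list of 30, of which 28 were found and 18 reached an FPKM of 1 somewhere among the 6 libraries. PLG, the zymogen itself, was at 0.28 to 0.40. At 100 nM 24 h, 11 of 17 tested genes were higher and 6 lower than DMSO, 1 of them called, with a median of 0.15. The numbers for 200 nM 24 h were 14 and 3, with 1 called and a median of 0.32. In each of these comparisons 1 of 17 is 5.88%. Among all tested genes the called share was 1.48% for 100 nM 24 h. For 200 nM 24 h it was 5.94%, so the list's share there was no larger. Of all tested genes, 5922 lay above 0 and 5525 below for 100 nM 24 h. With 200 nM 24 h the split was 5971 to 5668, and the all-gene median was 0.01 for either dose. For 100 nM 48 h, 9 were higher and 8 lower, and for 200 nM 48 h, 10 were higher and 7 lower, with 0 called in both and medians of 0.00 and 0.06. The called shares of all tested genes were 0.469% with 100 nM 48 h and 0.266% with 200 nM 48 h. Their medians were -0.01 and 0.01. They split into 5435 above 0 and 6028 below for 100 nM 48 h, and 5947 above and 5675 below for 200 nM 48 h.

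The gene called at 24 h was SERPINI1, neuroserpin, an inhibitor of tissue-type activator best known from neurons. Its FPKM was 0.46 in DMSO 24 h, 3.30 in 100 nM 24 h and 8.32 in 200 nM 24 h, and 2.06, 0.95 and 4.76 in DMSO, 100 nM and 200 nM at 48 h. The 200 nM library was the highest at each time, as for SERPINE2 and SERPINB2. This was not particular to inhibitors, since it also held for the listed genes ITGB1, ITGAV, IGF2R, ENO1 and CTSB. How many of all genes showed it was not counted. The 24 h changes of SERPINI1 were 1.56 and 2.67, and its 48 h changes were -0.65 and 0.91. SERPINI1 was below an FPKM of 1 in DMSO 24 h. It entered the 24 h counts through the PCI-24781 libraries alone, where it is high, so those counts are no support for a difference. At 200 nM 24 h SERPINI1 remained past 2-fold with the other references, at 2.14 against the mean of both DMSO libraries and 1.61 against DMSO 48 h. With 100 nM 24 h it was at 1.02 and 0.49 against these references, so that call was lost against DMSO 48 h.

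Of the genes listed as receptors for plasminogen, uptake receptors or partners of PLAUR, none was called against DMSO of the same time, and their levels ranged widely. ANXA2 and S100A10, which together form a plasminogen receptor, were at 889 to 1123 and 350 to 458. ENO1, a glycolytic enzyme that also binds plasminogen at the cell surface, was at 912 to 1433, and KRT8 was at 61.5 to 99.3. LRP1, which clears activator and inhibitor complexes, was at 8.30 to 17.6, and VLDLR, of the same receptor family, at 3.33 to 7.21. MRC2, a collagen receptor that associates with PLAUR, was at 10.5 to 20.9. SORL1 did not exceed 1.06, and LRP2, VTN and FPR1 were below 1 in every library. LRP1, MRC2 and VLDLR were each higher in all 48 h libraries than in all 24 h libraries, as were S100A10, CTSB and the member PLAU. How many of all genes showed this split was not counted. CTSB, a cysteine protease that can activate pro-urokinase, was at 95.9 to 161.

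**Figure D3:**
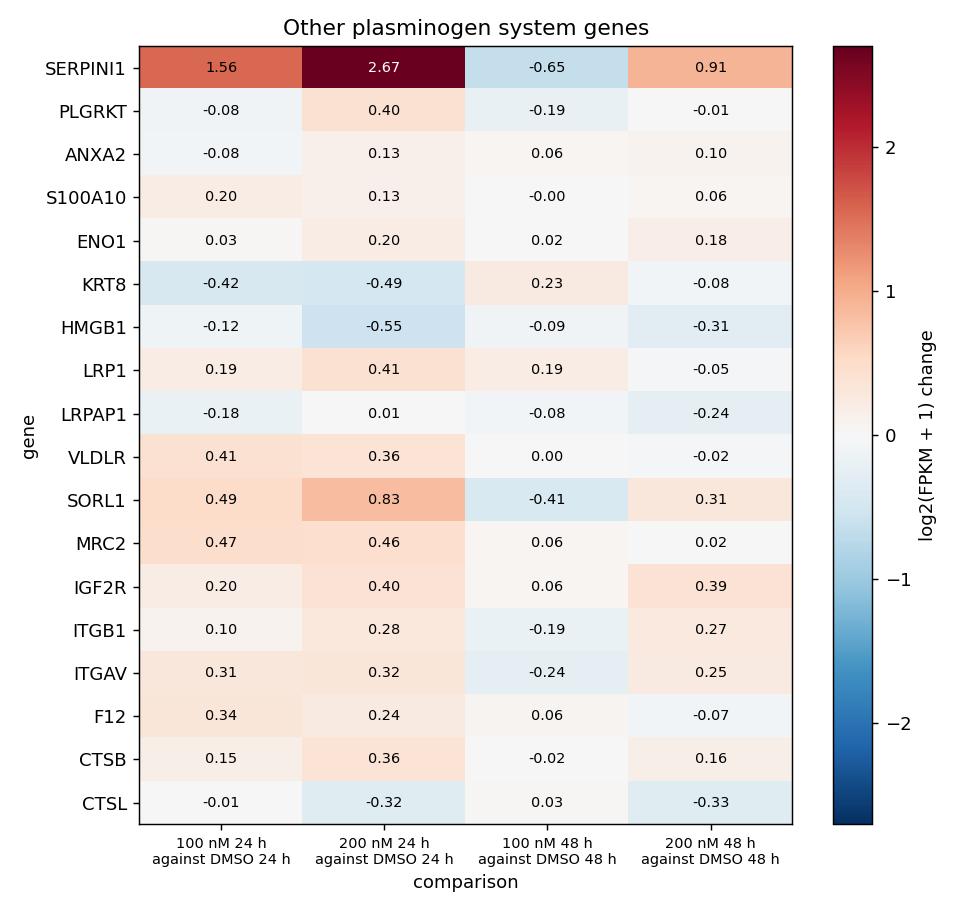
Change in log2(FPKM + 1) (colour and printed value) of the 18 other plasminogen system genes that reached an FPKM of 1 (rows) in the 4 comparisons with DMSO of the same time (columns), including values of genes below 1 in both libraries of a comparison. SERPINI1 has both the largest values (1.56 and 2.67 at 24 h) and the lowest (-0.65 at 100 nM 48 h).

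SERPINB2 belongs to clade B of the serpins, whose members lack a classical secretion signal. Of 12 other clade B genes listed, 11 were found and 5 reached an FPKM of 1. SERPINB2 lies in a cluster of clade B genes on chromosome 18, of which 9 were found in the files and 3 reached an FPKM of 1, namely SERPINB7, SERPINB2 and SERPINB8. SERPINB7, the next gene before SERPINB2 (61420281 to 61472610 in hg19), was at 0.28, 1.47 and 2.10 in DMSO, 100 nM and 200 nM at 24 h. The 48 h levels were 1.06, 0.13 and 4.74. It was called higher at 200 nM at both times, with changes of 1.28 and 1.48. At each time it was 1 of 5 tested other clade B serpins called, against 5.94% of all genes at 24 h and 0.266% at 48 h. At 24 h SERPINB7 was tested only through the 200 nM library, where it is high, so that call is no support for a difference. The 24 h call was lost with other references, at 0.93 against the mean of both DMSO libraries and 0.59 against DMSO 48 h. SERPINB7 was highest and lowest at 48 h in the same libraries as SERPINB2. SERPINB8, on the other side (61637263 to 61656608), was at 15.4, 11.8 and 8.91 at 24 h and 11.5, 9.63 and 9.44 at 48 h. Its changes were all below 0, from -0.73 to -0.24. SERPINB10, which starts 4100 bases after SERPINB2 ends, was at 0.12 to 0.45 and had no order by dose at either time.

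**Figure D4:**
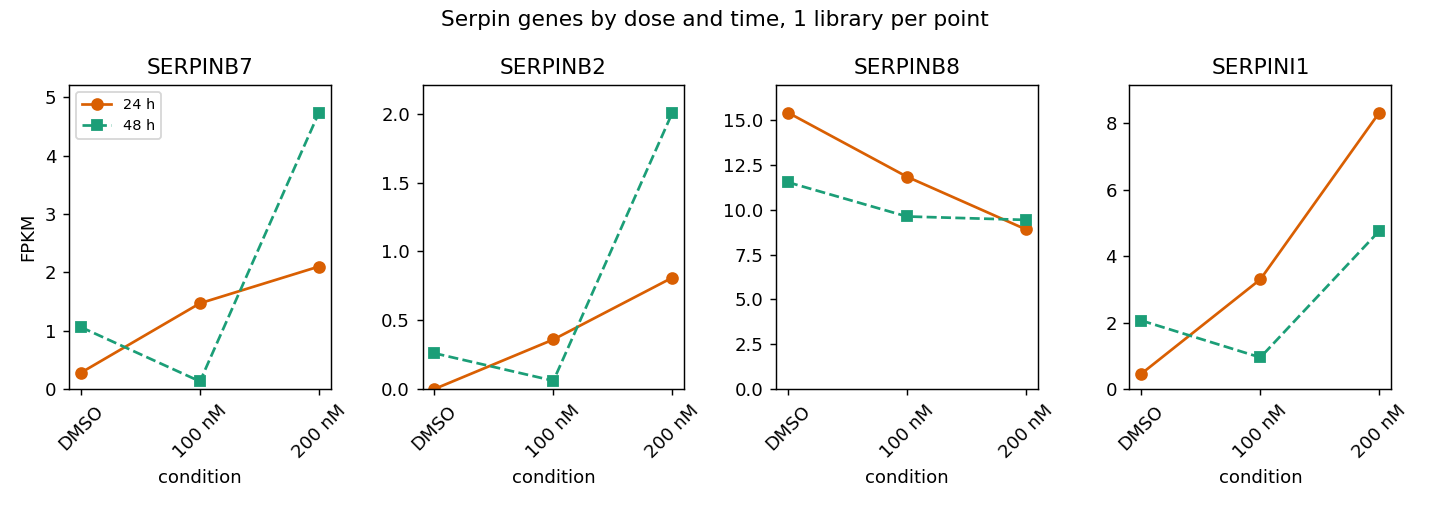
FPKM (y axis, from 0, its scale set for each gene) of SERPINB7, SERPINB2, SERPINB8 and SERPINI1 by dose (x axis) at 24 h (circles) and 48 h (squares), 1 library per point. SERPINB7, SERPINB2 and SERPINI1 dip at 100 nM 48 h (0.13, 0.06 and 0.95) and are high at 200 nM 48 h (4.74, 2.01 and 4.76).

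Profiles were also set beside each other over the 6 libraries, as a description, since these libraries share the cell line and the processing, and dose and time are mixed in them. Pearson's r of log2(FPKM + 1) over the 6 libraries was 0.97 between SERPINB2 and SERPINB7, 0.89 between SERPINB2 and SERPINE2 and 0.97 between SERPINE2 and SERPINI1. It was 0.72 between PLAT and SERPINE2, 0.63 between PLAU and PLAT, -0.27 between PLAT and PLAUR and -0.92 between PLAT and SERPINB8. Genes outside the lists, picked below for similar profiles, reached such values too. With them r was 0.96 between SERPINB2 and ATP1B1 and 0.995 between SERPINE2 and GSTM3. The members thus differed in their profiles.

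The genes with the most similar profile were sought among the 10800 genes whose FPKM was 1 or more throughout (10801 for SERPINB2), by the root mean square difference of centred log2(FPKM + 1) values over the 6 libraries. For PLAU they were SRPX (0.06), PDIA5 (0.09) and HLA-C (0.10). For PLAT they were FCHO1 (0.05), TMEM8B (0.06) and BCAM (0.06). The levels of BCAM, a laminin-binding surface protein, ran from 13.3 in DMSO 24 h to 36.1 in 200 nM 24 h. For PLAUR they were GBP1 (0.06), CKAP4 (0.07) and PRTFDC1 (0.08).

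The most similar genes to SERPINE2 were GSTM3 (0.04), VGLL3 (0.07) and HPSE (0.08). HPSE encodes heparanase, which cleaves heparan sulfate of the matrix, and was at 4.10, 8.26 and 10.97 at 24 h and 7.96, 4.78 and 12.2 at 48 h. For SERPINB2 the nearest genes were less similar, ATP1B1 (0.18), IL1RAP (0.21) and PLOD2 (0.22).

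Markers of other cell types were read beside these results. The summed FPKM of PTPRC, PECAM1, COL1A1 and COL3A1 was 3.18, 4.58 and 9.09 in DMSO, 100 nM and 200 nM at 24 h and 4.92, 3.54 and 8.37 at 48 h. This order of the libraries is close to that of SERPINE2, and most of the sum at 200 nM 24 h came from COL1A1, at 6.68. COL1A1 was itself called higher at 200 nM 24 h, with a change of 1.53. None of these 4 genes was at 0 in any library. The leukocyte marker PTPRC was at 0.76 to 1.01. The part of these genes in the results was not tested. The number of genes listed at 0 ran nearly opposite to SERPINE2, falling from 1708 in DMSO 24 h to 1130 in 200 nM 24 h, and its part was not tested.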

How the data were processed

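Total RNA of MDA-MB-231 cells was sequenced after mRNA enrichment or rRNA depletion by a sequencing company, 1 library for each of 6 conditions, which were taken from the sample titles. The authors deposited expression as FPKM per gene with 2 decimals, and the files hold no counts. The submitters' processing notes name Bowtie2, RSEM and hg19, without versions, and a strand setting is not given in the sources used here. Gene IDs were matched to symbols in the RefSeq table of GRCh38.p14 for 16585 genes, and 38 had no match.

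The values compared were log2(FPKM + 1), with a pseudocount of 1. A gene was tested when its FPKM was at least 1 in either library and called at 2-fold. No count test was run and no p-value calculated. The members, the gene lists and the likeness rule (the 3 nearest genes for each member that spans at least 0.5 on the log2 scale) were chosen with earlier results of these data known. Genes of the lists were named by value where they were called or, after their values were seen, where they illustrate a group (receptors, CTSB, other clade B serpins). HRG, HPN, SERPINB13 and ALB were not analysed here, 1 other gene of the lists is not reported here, and SERPINB3 and SERPINB4, which are near-identical, are uncertain.

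Depth was inferred from whole-fragment steps of genes with 1 transcript of 500 to 1500 bases and is approximate. The fragment floor covers counting error only. Other settings tried were a pseudocount of 0.1 or 0.01, the filter left out or applied to both libraries, TPM, median-of-ratios factors, a 1.5-fold threshold, the mean of both DMSO libraries and, added after seeing the data, the DMSO library of the other time. Python 3.11.15 was used with pandas 2.3.3, numpy 2.4.6 and, for plots, matplotlib 3.10.9. The 2-fold rule was tried on simulated data with counting error only. That simulation held no variation between cultures and set no change in low genes such as SERPINB2. It therefore does not show how reliable the calls made here are.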

Additional observations from a re-analysis of the deposited data

Results flagged for a closer look

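PLAU was higher than DMSO in both PCI-24781 libraries at 24 h and lower than DMSO in both at 48 h. The mean change of both doses was 0.27 at 24 h and -0.31 at 48 h, a difference of 0.58 on the log2 scale. This difference was not tested, since each condition has 1 library, and each mean uses 1 DMSO library for both doses. None of the 4 PLAU changes reached 2-fold. With the mean of both DMSO libraries as the reference, PLAU was at -0.12 and -0.24 at 24 h and at -0.04 and 0.31 at 48 h, so this pattern was no longer present.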

How the results depend on the processing

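Rescaling by median-of-ratios factors left all 20 changes of the 5 genes against DMSO within 0.1, and shifted the median of all genes by -0.06 to 0.03. Pseudocounts of 0.1 or 0.01 and rescaling to TPM moved 4 of the 20 by more and changed no sign. The reference moved more: with the mean of both DMSO libraries 4 of 20 changed sign, and with the DMSO library of the other time, added after seeing the data, 10 did. For none of the called changes of the members or listed genes did the sign reverse. The number of members called at 100 nM 24 h went from 0 to 2 at a 1.5-fold threshold. At 200 nM 24 h it fell from 2 to 0 with the mean DMSO reference and also to 0 with DMSO 48 h. At 100 nM 48 h it was 1 against DMSO 24 h. At 200 nM 48 h it was 0 when an FPKM of 1 was required in both libraries, since SERPINB2 then was not tested, and 3 against DMSO 24 h. The median of the other plasminogen system genes, with no filter, was 0.0449 at 100 nM 24 h and 0.152 at 200 nM 24 h. With the mean DMSO reference it was -0.013 and 0.056 for 100 nM and 200 nM at 24 h, and 0.169 and 0.342 for these doses at 48 h. With the DMSO library of the other time it was -0.0882, -0.197, 0.311 and 0.435 in the same order. The cause of the difference between the DMSO libraries was not tested, and time in culture, exchanged labels and a property of 1 library cannot be told apart. No paired analysis was possible because the groups hold 1 library apiece. At these depths the SERPINB2 values rest on 70 fragments or fewer.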

Other observations

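Of the other clade B serpins that reached an FPKM of 1, SERPINB1, SERPINB6 and SERPINB9 were called in none of the 4 comparisons with DMSO of the same time. SERPINB1, an inhibitor of neutrophil proteases, was at 41.6, 44.0 and 46.9 in DMSO, 100 nM and 200 nM at 24 h and at 61.5, 69.4 and 66.4 at 48 h, so all 48 h libraries lay above all 24 h libraries. SERPINB6 showed the same split by time, at 79.0 to 88.6 at 24 h and 100.5 to 104.8 at 48 h. SERPINB9, an inhibitor of granzyme B, was at 1.73 to 2.78. Neither the SERPINB1 nor the SERPINB6 difference by time was tested, and the share of all genes with such a split was not counted.

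The listed plasminogen receptor ENO1 was also split by time, at 912, 934 and 1047 at 24 h and 1263, 1278 and 1433 at 48 h. This split too was not tested and not counted over all genes. HMGB1, a nuclear protein that can bind plasminogen and activator outside cells, was lowest in the 200 nM library at each time, at 99.9 and 103.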
